A study of Rattus norvegicus with 123 samples.

Results

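The transcripts described here were chosen by their change in rat liver after 28 d of dosing with 1,4-dichlorobenzene, with piperonyl butoxide and with phenobarbital. Of 22470 transcripts on the array, 59 met the rule and are called members. A member was at least 0.5 log2 units above its controls with both 1,4-dichlorobenzene and piperonyl butoxide, and less than 0.25 above them with phenobarbital. It was also less than 0.7 above controls with cyproterone acetate at 28 d (group M), between -1 and 1 with Wy-14643, and less than 2 above controls with methapyrilene 100 mg/kg at 14 d. Members are numbered 1 to 59 by the smaller of the 2 differences that chose them, with member 1 the highest.

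Phenobarbital is a barbiturate and the classical inducer of drug-metabolising enzymes in rodent liver, where it turns on transcription through the constitutive androstane receptor. Piperonyl butoxide is an insecticide synergist that blocks cytochrome P450 enzymes and, given for longer, also induces them, and 1,4-dichlorobenzene is a chlorinated aromatic that raises drug-metabolising enzymes in rat liver. Cyproterone acetate is a steroidal antiandrogen and progestogen, Wy-14643 is an agonist of the peroxisome proliferator-activated receptor alpha, methapyrilene is an antihistamine that is toxic to rat liver, and pioglitazone and rosiglitazone are agonists of the receptor's gamma form.

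Adult Han Wistar rats, male per the labels, received a compound or its vehicle by gavage each day and were killed 1 day after dosing ended, and total liver RNA was hybridised to Affymetrix RaGene 2.0 ST arrays. Of 123 arrays, the 112 that the labels mark as of good quality were used, in 29 groups of 3 to 5 animals each. The groups that chose the members, all of 28 d unless stated, were 1,4-dichlorobenzene 600 mg/kg with corn oil controls (set B, n = 4 each), piperonyl butoxide 600 mg/kg with carboxymethylcellulose controls (set C, n = 3 each), and phenobarbital 80 mg/kg with carboxymethylcellulose controls (set A, n = 5 each). Cyproterone acetate M 100 mg/kg had corn oil controls (set D, n = 4 each), Wy-14643 60 mg/kg had carboxymethylcellulose controls (set B, n = 5 each), and methapyrilene 100 mg/kg at 14 d had carboxymethylcellulose controls (set C, n = 3 each). Methapyrilene 30 mg/kg at 28 d (n = 3) shares its controls with piperonyl butoxide at 28 d.

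The groups that had no part in the choice were piperonyl butoxide 600 mg/kg at 14 d (n = 3) and methapyrilene 30 mg/kg at 14 d (n = 3), both against the set C controls of 14 d (n = 3). Phenobarbital 80 mg/kg at 14 d (n = 3) and at 90 d (n = 3) had set A controls of 14 d (n = 5) and 90 d (n = 4). Cyproterone acetate 100 mg/kg was measured in M animals at 14 d and in F animals at 14 d and 28 d, each against corn oil controls of set D (n = 4 in every group). Pioglitazone 16 mg/kg (n = 3), pioglitazone 63 mg/kg (n = 5) and rosiglitazone 10 mg/kg (n = 3) at 28 d share water controls (set E, n = 5). Doses are those of the labels, in mg/kg, whereas the names of the groups read ppm. What the letters F and M stand for is not spelled out and the labels describe only male animals, so the letters are used without a meaning attached. The set C controls of 14 d entered the rule only through the upper limit on methapyrilene 100 mg/kg, so the treated animals of the 14 d piperonyl butoxide comparison are new but its controls are not wholly independent of the rule.

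The probe sets carry Ensembl transcript identifiers and could not be paired with gene symbols here, with 0 of 22470 found in the gene table at hand. The role of each member, and the liver and other cell type markers, were therefore not analysed here. Each animal gave 1 of the arrays used, and the number of arrays limits the precision. In bulk liver, fewer cells of a type and less RNA per cell cannot be told apart.

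The limit on phenobarbital removed the most candidates. Of the 22470 transcripts, 228 were at least 0.5 log2 units above controls with both 1,4-dichlorobenzene and piperonyl butoxide, and 169 of these lay outside another limit. Phenobarbital at 28 d held 135 of the 169 out, 47 of them alone. Cyproterone acetate M held out 76, Wy-14643 71 and methapyrilene 100 mg/kg 42. In 37 of the 59 members the smaller of the 2 differences was under 0.6, and in 3 both were 1 or more. Inside the limit of 0.5 the nearest members had smaller differences of 0.5003, 0.5019 and 0.505 log2 units, and the nearest transcripts outside had 0.4999, 0.4996 and 0.4993. At the phenobarbital limit of 0.25, the nearest members lay at 0.2451, 0.2435 and 0.2364, and the nearest transcripts outside at 0.2532, 0.2543 and 0.2556.

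Membership depended on single animals. When each of the 48 arrays behind the rule was left out in turn, 39 to 59 of the members still met it (median 57). The fewest, 39, did so without piperonyl butoxide replicate 1 at 28 d, followed by 45 without set C control replicate 2 and 46 without piperonyl butoxide replicate 3. The members also hold fewer separate signals than 59. Across the 112 arrays, residuals from the group means correlated above 0.9 within 6 small groups that hold 13 members, leaving 52 separate units. The largest is members 16, 20 and 40, with r from 0.907 to 0.967, and members 1 and 2 correlated at 0.964. These correlations describe probe sets on the same arrays and count the arrays, not independent genes.

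**Figure D1:**
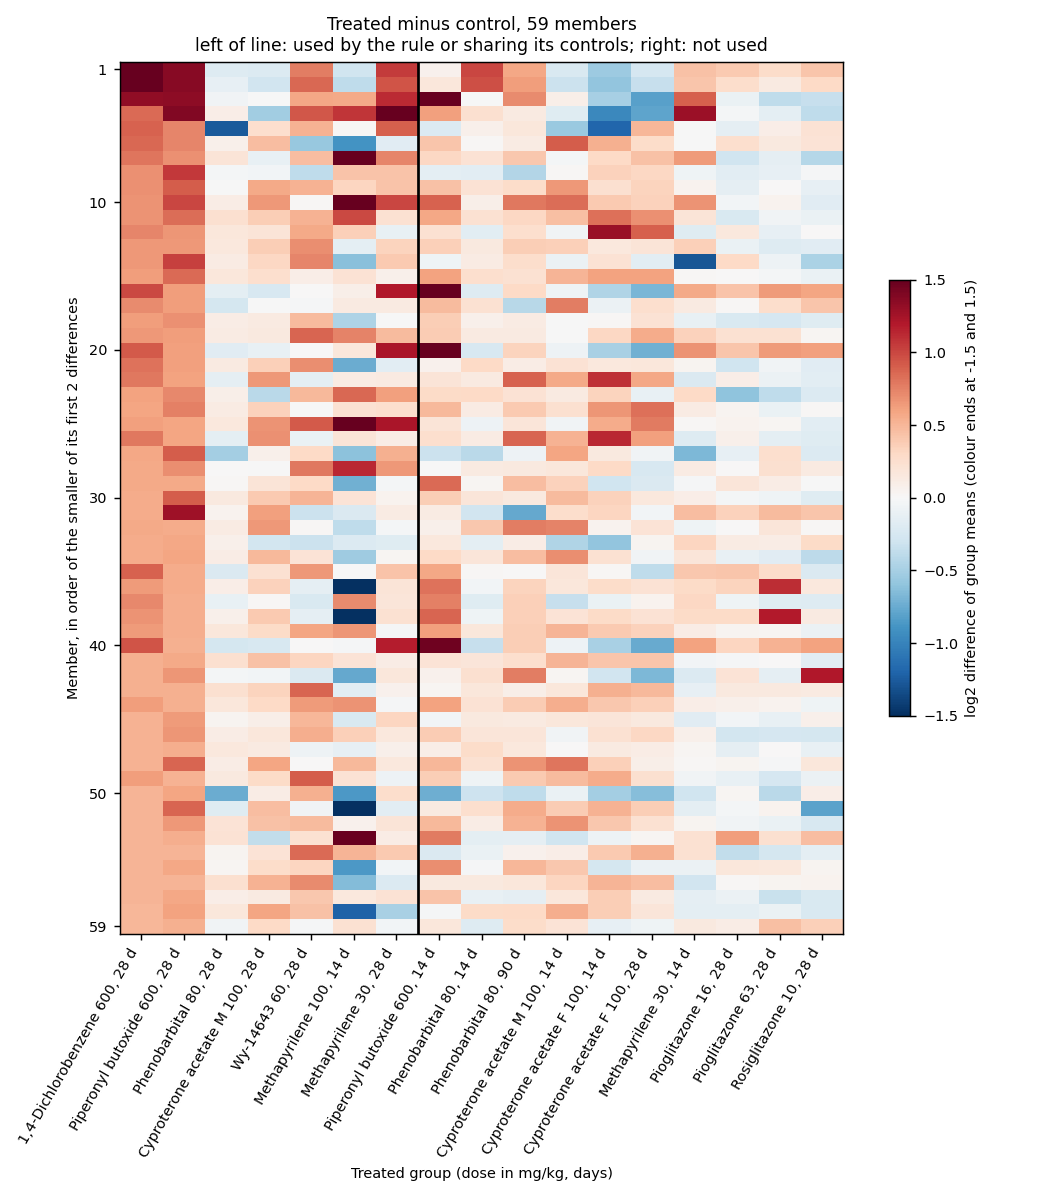
Log2 difference of group means, treated minus control, for the 59 members (vertical axis, in order of the smaller of the first 2 differences) in each treated group (horizontal axis, dose in mg/kg and days). Red is higher and blue lower in treated animals, with the colour ending at -1.5 and 1.5. Columns left of the line were used by the rule or share its controls, and the first 2 are red by choice. To the right, members 3, 16, 20 and 40 are darkest with piperonyl butoxide at 14 d, and the cyproterone acetate F columns hold both red and blue.

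In the groups behind the rule the values are a description. The members' median difference was 0.63 log2 units with 1,4-dichlorobenzene (0.50 to 1.62) and 0.63 with piperonyl butoxide at 28 d (0.51 to 1.38), and the first was the larger in 26 members. With phenobarbital at 28 d the median was 0.10, from -1.255 to 0.245. Cyproterone acetate M at 28 d gave a median of 0.25 (-0.53 to 0.68). Wy-14643 gave 0.44 (-0.57 to 0.93), with 44 of 59 members above 0, against 49.4% of all transcripts. Its limits of -1 and 1 had a part in these values. Methapyrilene 100 mg/kg at 14 d spread widest, from -1.98 to 1.98 around a median of 0.12. Methapyrilene 30 mg/kg at 28 d had a median of 0.18 and a range of -0.48 to 1.86.

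As 1 mean over the 59 members per array, the 1,4-dichlorobenzene arrays lay 0.59 to 0.73 log2 units above the mean of their controls. The 3 piperonyl butoxide arrays of 28 d lay 0.52 to 0.86 above theirs, with 1 of the 3 well below the others. In the highest, replicate 1, the median over all transcripts was also 0.103 above controls. That median was 0.0034 in replicate 2 and -0.0128 in replicate 3. Of the 12 control groups, the set C controls of 28 d had the lowest mean log2 value over the members, 6.472. The next was 6.526, in the corn oil controls of 1,4-dichlorobenzene, and the highest 6.894, in F controls of 28 d. The part of low controls in the differences that chose the members was not tested. Phenobarbital arrays of 28 d lay between -0.09 and 0.10. Among the groups not used by the rule, the mean was 0.33 to 0.44 above controls with piperonyl butoxide at 14 d, 0.26 to 0.28 with phenobarbital at 90 d and 0.04 to 0.18 with phenobarbital at 14 d. The 4 cyproterone acetate arrays of the M group at 14 d lay 0.16 to 0.32 above their controls, and those of the F group 0.10 to 0.23 at 14 d and 0.03 to 0.18 at 28 d. The lowest F array of 28 d lay inside the range of its controls, which reached 0.05. Methapyrilene 30 mg/kg at 14 d gave 0.08 to 0.16. Pioglitazone and rosiglitazone arrays lay between -0.05 and 0.12, with the arrays of both pioglitazone doses and of rosiglitazone overlapping their water controls.

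**Figure D2:**
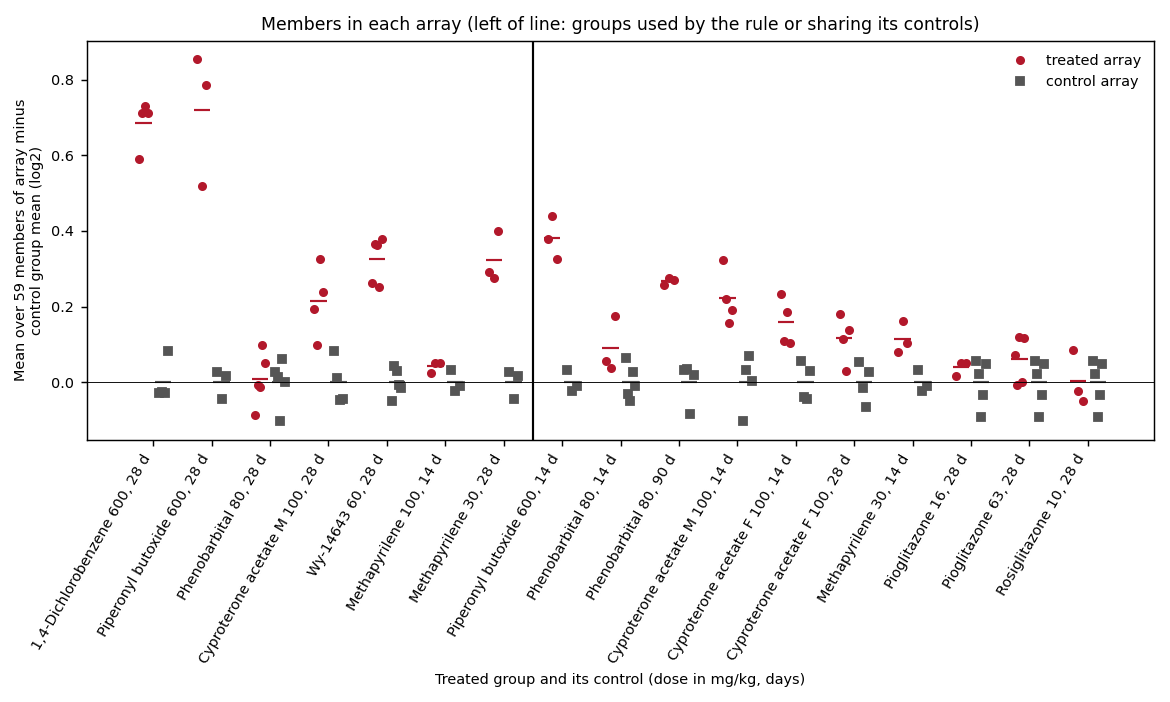
Mean log2 value over the 59 members in each array minus the mean of its control group (vertical axis), by treated group (horizontal axis, dose in mg/kg and days). Red circles are treated arrays, grey squares control arrays and bars group means. Groups left of the line were used by the rule or share its controls. The 3 piperonyl butoxide arrays of 14 d sit between 0.33 and 0.44, above their controls.

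Whether the members also move at a time that did not choose them was tested with piperonyl butoxide at 14 d. Of the 59 members 11 rose and 0 fell (limma, Benjamini-Hochberg adjusted p under 0.05 over all 22470 transcripts), against 1.23% of all transcripts called higher and 0.676% called lower. The 11 are 18.6% of the members and form 8 separate units. Without the dimmest 40% of transcripts, 17 of the 52 members kept rose, and the share of all transcripts in that fit is not given here. The 11 rises were 0.49 to 1.63 log2 units. Of the 59 members 50 lay above 0, against 51.0% of all transcripts, and the members' median was 0.36, against 0.00521 over all transcripts. At an unadjusted p under 0.05, 30 members were higher and 1 lower, and the share of all transcripts at that threshold is not given here. Of the 11 rises, 7 stayed past the threshold in every one of 14 alternative fits: members 3, 15, 16, 20, 39, 40 and 44.

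ENSRNOT00000076877, member 20, had log2 values of 8.77, 9.02 and 8.78 with piperonyl butoxide at 14 d, against 7.44, 7.03 and 7.20 in its controls. Every treated array lay above every control array. The rise was 1.63 log2 units (SE 0.25, adjusted p = 3.56e-06, and 1.93e-06 to 0.00444 over the alternatives). At 28 d, where it was chosen, the same transcript had 7.92, 6.77 and 7.82 with piperonyl butoxide, against 6.85, 6.71 and 7.09 in controls. The second treated array lay among the controls there, and the difference was 0.62. Its 1,4-dichlorobenzene values were 7.64, 7.99, 8.17 and 8.17, against 7.12, 7.02, 6.81 and 7.34 in corn oil controls, apart from each other by group. Member 16, whose residuals follow those of member 20, had 8.94, 9.13 and 9.03 with piperonyl butoxide at 14 d and 7.67, 7.25 and 7.29 in controls. Its rise was 1.63 (SE 0.22, adjusted p = 1.26e-07), and the 2 transcripts are not independent of each other.

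ENSRNOT00000024119, member 3, had 10.26, 8.93 and 9.86 with piperonyl butoxide at 14 d, against 8.04, 8.29 and 8.11 in controls. The groups did not overlap, and the treated arrays spread over more than a log2 unit. The rise was 1.54 (SE 0.26, adjusted p = 3.86e-05, and 1.96e-06 to 0.0281 over the alternatives). In the choosing comparisons it had 9.73, 9.81, 9.88 and 9.95 with 1,4-dichlorobenzene, against 8.33, 8.21, 9.11 and 8.39 in controls, and 9.02, 9.19 and 9.73 with piperonyl butoxide at 28 d, against 8.18, 7.79 and 7.96 in controls. The differences were 1.33 and 1.34, and members 1, 2 and 3 are the 3 with both at 1 or more.

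Smaller rises came with narrow spread. Member 15 had 8.21, 8.56 and 8.37 with piperonyl butoxide at 14 d, against 7.77, 7.64 and 7.92 in controls, higher by 0.60 (SE 0.10, adjusted p = 2.12e-05). For member 39 the values were 6.88, 7.03 and 6.87, against 6.16, 6.38 and 6.41 in controls, higher by 0.61 (SE 0.11, adjusted p = 0.000246). Treated and control arrays were apart in both. Members 29 and 53 rose by 0.85 and 0.78 in the fit over all arrays. Member 29 missed the threshold without control replicate 1 (0.82, adjusted p = 0.0593) and without piperonyl butoxide replicate 1 or 2 (0.79 and 0.82, adjusted p = 0.0834 and 0.0582), and with the variance from this set of animals alone (adjusted p = 0.301). Member 53 missed it with any control array left out (0.73 to 0.83) or without piperonyl butoxide replicate 1 or 3 (0.62 and 0.85), with adjusted p from 0.0582 to 0.263, and also with the arrays not of good quality put back (adjusted p = 0.0517). Members 11 and 52 missed it with the variance from this set alone (adjusted p = 0.185 and 0.123).

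The pair with the largest choosing differences, members 1 and 2, did not pass the test at 14 d. ENSRNOT00000006553, member 1, had 5.27, 7.63, 8.01 and 8.08 with 1,4-dichlorobenzene, against 5.05, 5.78, 6.01 and 5.68 in controls. Replicate 1 lay within the controls and the other 3 arrays more than 1 log2 unit above them, and the difference of 1.62 is a mean over both. With piperonyl butoxide at 28 d it had 6.80, 6.28 and 5.76, against 5.07, 4.50 and 5.18 in controls, apart by 1.36. At 14 d it had 5.29, 4.92 and 5.09 with piperonyl butoxide, against 5.03, 5.22 and 4.86 in controls, and the difference was 0.06 (SE 0.43, adjusted p = 0.981). It passed the test in no comparison that the rule had not used.

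Phenobarbital was the compound the members were chosen against, but at 28 d only. At 14 d, 0 of 59 members passed the test in either direction with limma, against 0.672% of all transcripts called higher and 0.765% lower. At an unadjusted p under 0.05, 8 members were higher and 0 lower, without a share of all transcripts at that threshold to set beside them. The lowest adjusted p was 0.0949. The members' median was 0.13 log2 units (-0.40 to 1.00), against 0.0153 over all transcripts, and 39 of 59 lay above 0, against 53.2%. The 95% interval had a median half-width of 0.36, and its upper bound was under 0.5 in 39 members. In the other 20 the interval still held rises of 0.5 or more. Member 1 had the highest value, with 6.38, 5.60 and 7.21, against 5.34, 5.51, 5.64, 5.18 and 5.28 in controls. The lowest treated array lay inside the control range, and the difference of 1.00 (SE 0.39) had an adjusted p of 0.206.

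At 90 d with phenobarbital, 8 of 59 members rose (13.6%) and 0 fell, against 1.36% of all transcripts called higher and 0.623% lower. The 8 form 6 units. Their rises were 0.37 to 0.88 log2 units. The members' median was 0.27, against 0.00564 over all transcripts, and 52 of 59 lay above 0, against 51.4% of all transcripts. The other 51 members did not pass at 90 d, and the limit on phenobarbital in the rule covers 28 d alone. Whether the phenobarbital effect differs between 28 d and 90 d was not tested, since the 28 d values chose the members. Member 22 led with 5.29, 5.43 and 5.28, against 4.52, 4.22, 4.33 and 4.73 in controls of 90 d. Treated and control arrays were apart, with a rise of 0.88 (SE 0.21, adjusted p = 0.0074) that missed the threshold without phenobarbital replicate 4 (0.84, adjusted p = 0.0678). Member 32 rose by 0.77 (SE 0.13, adjusted p = 2.34e-05) and passed in all 15 alternatives.

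The 90 d count rested on few animals. It was 4 without control replicate 1, 4 without phenobarbital replicate 2, 3 without replicate 4 and 5 without replicate 5, and 14 with the arrays not of good quality put back. Of the 8 rises, 2 stayed past the threshold in all 15 alternatives. The set A controls themselves moved with time: at 90 d against 14 d, 1 member was higher and 5 were lower, against 1.13% of all transcripts called higher and 1.69% lower. Member 3 had 7.35, 7.87, 7.43 and 7.04 in controls of 90 d, against 8.27, 8.18, 8.57, 8.62 and 8.55 in controls of 14 d. The groups were apart, by -1.01 (SE 0.22, adjusted p = 0.00199). Its 90 d phenobarbital values of 7.92, 8.40 and 8.10 all lay above the 90 d controls, and the difference of 0.71 did not pass the test (adjusted p = 0.134). The count between control times was 3 without set A control replicate 4 of 14 d and 3 without replicate 2 of 90 d.

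The difference between the piperonyl butoxide and phenobarbital effects at 14 d was tested directly, each against its own controls, at 600 and 80 mg/kg. In 4 members the piperonyl butoxide effect was the larger past the threshold, and in 0 the smaller, against 0.427% and 0.134% of all transcripts. The 4 are members 3, 16, 20 and 40, which form 2 units. Without adjustment, 18 members had a p under 0.05 in that direction and 0 in the other, and the share of all transcripts is not given at that threshold. The members' median difference was 0.25, and its 95% interval had a median half-width of 0.54, which is wider than that median. The compounds were given at different doses and in different sets of animals, and dose, set and compound cannot be told apart.

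Member 20 had 6.68, 7.39 and 7.56 with phenobarbital at 14 d, against 7.36, 7.32, 7.36, 7.74 and 7.50 in controls, a difference of -0.24 (SE 0.23, adjusted p = 0.713). Treated and control arrays overlapped. Its piperonyl butoxide effect exceeded its phenobarbital effect by 1.87 (SE 0.34, adjusted p = 0.000693). Member 3 had 8.02, 8.61 and 8.67 with phenobarbital, against 8.27, 8.18, 8.57, 8.62 and 8.55 in controls, which overlap, and the effects differed by 1.54 (SE 0.35, adjusted p = 0.0168). That call was lost without phenobarbital replicate 1 (adjusted p = 0.0759), without piperonyl butoxide replicate 1 (1.25, adjusted p = 0.13) and without piperonyl butoxide replicate 3 (adjusted p = 0.0604).

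**Figure D3:**
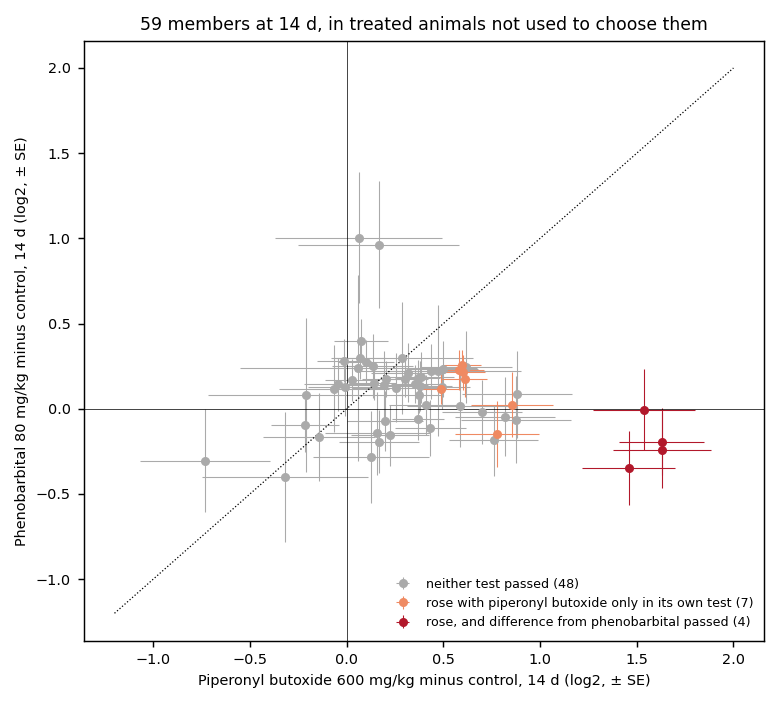
Effect at 14 d of piperonyl butoxide 600 mg/kg (horizontal axis) and of phenobarbital 80 mg/kg (vertical axis), each as treated minus control in log2 units with its SE, for the 59 members. Colour marks which test a member passed, and the dotted line marks equal effects. The 4 dark red members lie between 1.46 and 1.63 with piperonyl butoxide and at or below 0 with phenobarbital.

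Cyproterone acetate moved more of the members than any other compound outside the rule, and it also moved more transcripts in all. In M animals at 14 d, 18 of 59 rose (30.5%) and 0 fell, against 5.22% of all transcripts called higher and 4.72% lower. The rises ran from 0.33 to 0.91 log2 units in 17 separate units, with a median over all members of 0.18. Member 6 led with 7.08, 7.10, 7.12 and 7.11, against 5.95, 6.08, 6.39 and 6.37 in controls. The treated arrays were nearly equal and lay above every control, a rise of 0.91 (SE 0.17, adjusted p = 4.35e-05). Member 52 had 8.42, 8.39, 8.49 and 8.48, against 7.78, 7.74, 7.75 and 7.85 in controls, higher by 0.67 (SE 0.09, adjusted p = 4.57e-09).

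In F animals most of the members past the test rose. At 14 d, 18 rose (30.5%) and 1 fell, against 7.53% and 6.21% of all transcripts, and the falls were 3 without control replicate 4 and 2 without treated replicate 1. At 28 d, 14 rose (23.7%) and 5 fell (8.47%), against 8.91% and 6.24%, and the falls were 2 without control replicate 1 and 2 without treated replicate 2. The share that fell was below that of all transcripts at 14 d (1.69%) and near it at 28 d. Member 12 led at 14 d with 8.36, 8.09, 7.93 and 8.02, against 7.24, 6.56, 6.75 and 6.67 in controls. Treated arrays were all above controls, by 1.29 (SE 0.17, adjusted p = 7.07e-09). It also led at 28 d, with a rise of 0.89 (SE 0.17, adjusted p = 5.12e-05). Member 24 had 7.77, 7.95, 7.69 and 7.71 at 28 d, against 7.06, 6.94, 6.73 and 7.08 in controls, higher by 0.83 (SE 0.13, adjusted p = 2.02e-07).

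Between F and M animals the 14 d effect differed in 2 members, against 1.93% of all transcripts with the larger effect in F and 1.45% with the smaller. Member 12 had the larger effect in F, by 1.35 (SE 0.25, adjusted p = 8.05e-05), and member 32 the smaller, by -0.69 (SE 0.17, adjusted p = 0.00734). Both passed in all 24 alternatives, and a second member had the smaller effect in F without M control replicate 2 or 3, or without F control replicate 4. The controls of these comparisons differed as well. At 14 d, F controls were higher than M controls in 11 members and lower in 3, against 3.87% and 4.05% of all transcripts, and the 3 lower ones were 1 without M control replicate 2. Member 12 was among the lower ones, at -0.66 (SE 0.17, adjusted p = 0.00657). The part of this control difference in the result was not tested. Member 55 had 8.05, 8.42, 8.21 and 8.27 in F controls, against 7.01, 7.44, 7.19 and 7.09 in M controls, higher by 1.05 (SE 0.18, adjusted p = 6.48e-06).

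The 5 members that fell in F animals at 28 d were members 3, 4, 16, 20 and 40, which form 3 units. All but member 4 are those whose piperonyl butoxide effect exceeded the phenobarbital effect at 14 d. ENSRNOT00000024423, member 4, had 9.53, 9.54, 9.55 and 9.24 with cyproterone acetate in F animals at 14 d, against 10.58, 10.65, 10.33 and 10.18 in controls. At 28 d it had 9.56, 9.95, 10.17 and 9.24, against 10.66, 10.30, 10.55 and 10.55. All treated arrays lay below all controls on both days, by -0.97 (SE 0.20, adjusted p = 0.00021) and -0.79 (SE 0.20, adjusted p = 0.00287). It was also higher in F than in M controls at 14 d, by 0.98 (adjusted p = 0.000268).

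Member 3 had 8.93, 9.02, 8.48 and 8.83 with cyproterone acetate in F animals at 28 d, against 9.55, 9.63, 9.24 and 10.08 in controls, all lower. The change was -0.81 (SE 0.23, adjusted p = 0.00692), and -0.66 without control replicate 4 (adjusted p = 0.0598). Member 20 had 7.39, 6.80, 8.05 and 8.04, against 8.79, 7.96, 8.23 and 8.19 in controls, and 2 treated arrays lay above the lowest control. Its change of -0.72 (SE 0.22, adjusted p = 0.0128) was lost without control replicate 1 (-0.56, adjusted p = 0.104) and without treated replicate 2 (-0.46, adjusted p = 0.189). Members 16 and 40, which follow member 20, were lost without the same 2 arrays, at adjusted p from 0.0604 to 0.157. In M animals at 14 d, the 5 lay between -0.18 and 0.08 log2 units and none passed the test. They were 0.85 to 1.33 above controls with 1,4-dichlorobenzene and 0.62 to 1.63 with piperonyl butoxide at 14 d. With methapyrilene 30 mg/kg the 5 were 0.57 to 1.29 above controls at 14 d, where only members 3 and 4 passed the test. At 28 d with methapyrilene 30 mg/kg they were 1.12 to 1.86 above controls, without a test, since those controls had a part in the rule.

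**Figure D4:**
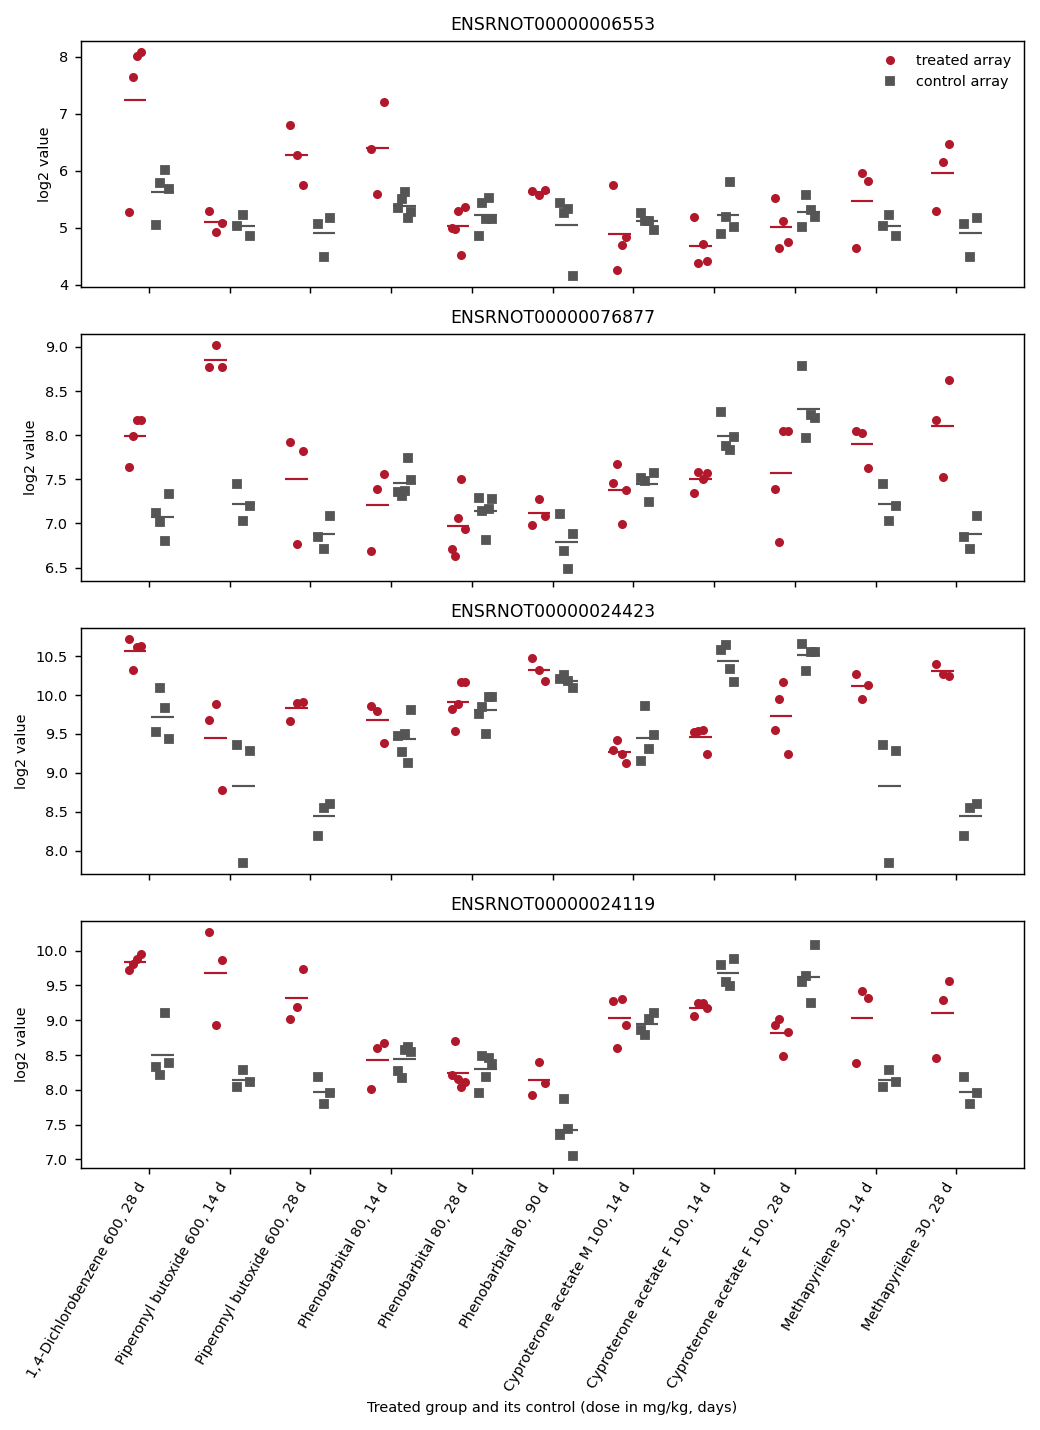
Log2 value per array of members 1, 20, 4 and 3, from top to bottom, by treated group with its controls (horizontal axis, dose in mg/kg and days). Red circles are treated arrays, grey squares control arrays and bars group means. Members 4 and 3 lie below controls with cyproterone acetate in F animals. They lie above controls with 1,4-dichlorobenzene and with methapyrilene 30 mg/kg at 28 d. Member 1 has 1 low array with 1,4-dichlorobenzene, at 5.27.

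Methapyrilene 30 mg/kg at 14 d raised 3 members and lowered 1, against 2.31% and 1.07% of all transcripts called higher and lower, and shares its controls with piperonyl butoxide at 14 d. Member 4 had 10.27, 9.94 and 10.13, against 9.36, 7.84 and 9.28 in controls. The second control array lay far below the others. The rise was 1.29 (SE 0.24, adjusted p = 0.000196), and 0.79 without that array (adjusted p = 0.0607). Member 14 had 4.42, 4.56 and 3.86, against 5.83, 5.67 and 5.18 in controls, a fall of -1.28 (SE 0.28, adjusted p = 0.0024) that was lost without methapyrilene replicate 3 (-1.07, adjusted p = 0.0706). The count of 4 was 1 without control replicate 2, 1 without methapyrilene replicate 3, and 2 without control replicate 3 or methapyrilene replicate 2. With the variance estimated from this set of animals alone it was 0.

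The thiazolidinediones moved few members. With pioglitazone 16 mg/kg, 0 of 59 passed in either direction with limma, against 0.0223% and 0.0267% of all transcripts called higher and lower. At an unadjusted p under 0.05, 2 members were higher and 3 lower, and the share of all transcripts at that threshold is not given here. With pioglitazone 63 mg/kg, 3 members rose and 0 fell, against 0.935% and 1.48%. Members 36 and 38, which correlated at 0.992, led. Member 38 had 8.24, 10.04, 9.62, 10.02 and 9.53, against 9.07, 8.34, 8.17, 7.19 and 8.75 in water controls. The first treated array lay among the controls and the other 4 above all of them, a rise of 1.19 (SE 0.22, adjusted p = 0.000606) that was lost when the variance came from this set alone (adjusted p = 0.152). With rosiglitazone, 0 rose and 1 fell, against 0.2% and 0.481%. Member 51 had 6.09, 5.85 and 5.34, against 6.17, 6.52, 6.70, 6.92 and 6.52 in controls. All treated arrays lay below all controls. The fall of -0.81 (SE 0.19, adjusted p = 0.0133) was lost with the arrays not of good quality put back (-0.46, adjusted p = 0.188), with the variance from this set alone (adjusted p = 0.179), without rosiglitazone replicate 2 (-0.85, adjusted p = 0.0601) or replicate 4 (-0.60, adjusted p = 0.321), and the count was 2 without water control replicate 4 or rosiglitazone replicate 1.

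**Figure D5:**
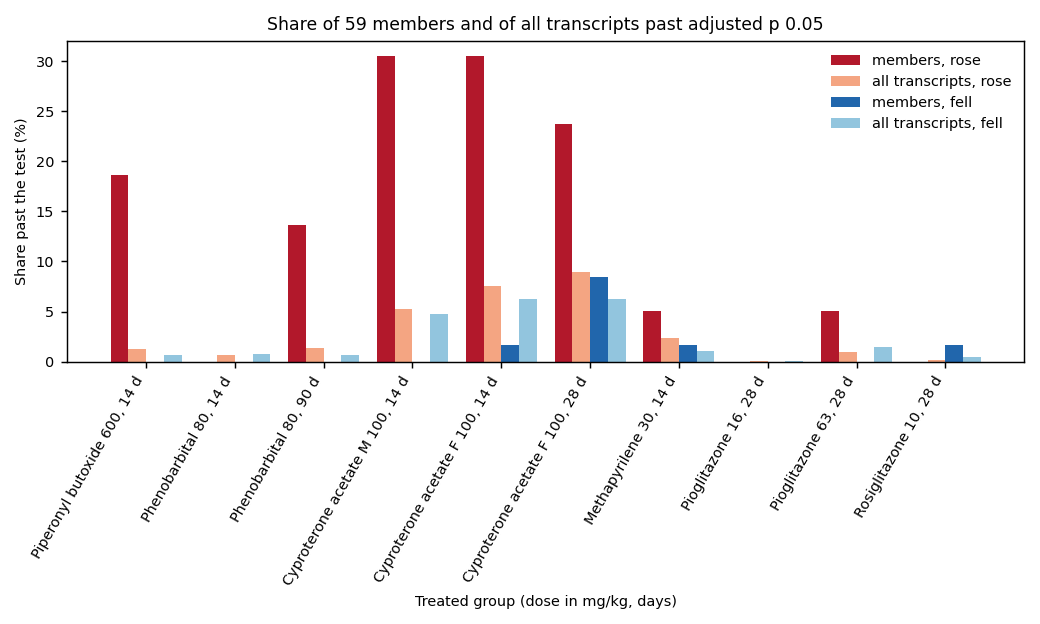
Share of the 59 members and of all 22470 transcripts past the test in each comparison that the rule had not used (vertical axis in percent, horizontal axis treated group with dose in mg/kg and days). Dark bars are members and light bars all transcripts, red for higher and blue for lower. The rising share of members is 18.6% with piperonyl butoxide at 14 d and 30.5% with cyproterone acetate at 14 d in both M and F, and 0 with phenobarbital at 14 d.

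Over the 10 treatment comparisons that the rule had not used, 36 of 59 members rose in at least 1 and 23 in none, where 16.5% of all transcripts rose in at least 1. In 3 or more, 9 members rose, against 2.83% of all transcripts. In at least 1, 7 members fell, against 13.8% of all transcripts. Of these 7 members, 6 had risen in another comparison, as had 369 of the 3109 transcripts that fell. Members 16, 20 and 40, a correlated group, are among the 6. Members 39 and 44, a correlated pair, rose in 5 comparisons: piperonyl butoxide at 14 d, phenobarbital at 90 d and cyproterone acetate in M at 14 d and in F at both days. Member 39 had 7.03, 6.98, 6.96 and 7.04 with cyproterone acetate in M at 14 d, against 6.48, 6.49, 6.59 and 6.41 in controls, apart by 0.51 (SE 0.10, adjusted p = 9.63e-05). Its 90 d phenobarbital rise of 0.37 had the highest adjusted p of the 5, 0.0452, and was lost without 6 of the 7 arrays in turn, all but phenobarbital control replicate 2, at adjusted p from 0.0676 to 0.245. In F at 28 d, the rises of members 39 and 44 were lost without cyproterone acetate replicate 2 (0.26 and 0.27, adjusted p = 0.0877 and 0.0698). Members 11 and 15 rose in 4, with piperonyl butoxide at 14 d and all 3 cyproterone acetate groups outside the rule, and member 11 lost the first of these without piperonyl butoxide replicate 2 (0.46, adjusted p = 0.09). Members 22 and 52 also rose in 4, phenobarbital at 90 d among them. Member 22 rose with the same 3 cyproterone acetate groups, and member 52 with piperonyl butoxide and cyproterone acetate in M and F, all at 14 d. Among other losses, member 22 missed the threshold in M at 14 d without control replicate 1 (0.50, adjusted p = 0.157).

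Comparisons that share no controls overlapped in part. Of the 11 that rose with piperonyl butoxide at 14 d, 5 also rose with cyproterone acetate in M at 14 d, 45.5% of the first list and 27.8% of the second. Among all transcripts the same overlap was 55.1% of the 276 and 12.9% of the 1174 that rose. Piperonyl butoxide at 14 d and phenobarbital at 90 d had 3 rises in common, 27.3% of the first and 37.5% of the second, against 29.7% and 26.8% over all transcripts. Phenobarbital at 90 d and cyproterone acetate in M at 14 d had 7 in common, 87.5% of the first and 38.9% of the second, against 53.9% and 14.1% over all transcripts. With cyproterone acetate in F at 28 d the 11 divided: 4 rose, in 3 separate units, and 4 fell, in 2. The 4 rises are 36.4% of the first list and 28.6% of the second, against 48.2% and 6.64% over all transcripts. The 4 falls are 36.4% of the first and 80% of the second, against 7.61% and 1.5% over all transcripts. None of these overlaps was tested.

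The 169 transcripts raised by both compounds but outside another limit give a comparison within the series. With piperonyl butoxide at 14 d 71 of them rose and 0 fell, with a median of 0.70 log2 units, against 0.36 in the members. With phenobarbital at 14 d 49 rose (median 0.36), where 0 members did, and at 90 d 85 rose (median 0.71). Cyproterone acetate in M at 14 d raised 102 and lowered 1 (median 0.60). Since the limits at 28 d set the 2 lists apart, these values are a description and not a test.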

How the data were processed

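The authors' deposited table holds log2 values of 23110 transcript probe sets on 123 arrays. RMA and affy, without versions, are the tools named per the submitters' processing notes. Whether all arrays were normalised together is not given in the sources used here, nor is a scan date or other batch. Array medians ran from 5.43 to 5.64.

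From these values, 640 probe sets equal to an earlier one on every array were dropped, and 11 arrays that the labels mark as not of good quality were left out. The 29 groups, 112 arrays in all, were fitted together with limma 3.58.1 in R 4.3.3, each group having its own mean, and every transcript was tested without a filter, all 59 members included. The fit had 83 residual and 4.23 prior degrees of freedom and a median moderated SD of 0.204 log2 units. Adjusted p-values are limma's, with Benjamini-Hochberg adjustment over 22470 transcripts, for 12 comparisons and 2 differences between comparisons. Comparisons that chose the members have no test. The scripts were tested on simulated data.

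The members and gene lists were chosen with earlier results of these data known. The gene lists, markers and naming by symbol could not be run, because 0 identifiers were found among the 47357 genes of assembly GRCr8. At most 2 identifiers that rose and 2 that fell are therefore printed, taken in the order of the smaller choosing difference or of the largest change past the test. Other members are given by number, from the 3 largest rises and falls per comparison (10 rises for piperonyl butoxide at 14 d), and not all of these are printed. Members that rose in 4 or more comparisons or in a correlated group were added after their values were seen. Animals of a group are taken as replicates, per the labels. Alternatives were all arrays, the variance from 1 control set, array centring, quantile normalisation, trended and robust variances, equal probe sets kept, the dimmest 40% left out, a replicate block, and each array left out in turn. With all arrays, the set A control array of 14 d numbered 3_2 was taken as a repeat of replicate 3 and averaged with it.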

Additional observations from a re-analysis of the deposited data

Results flagged for a closer look

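In 18 groups of 4 or 5 arrays, 5 values each were tested (4 transcripts and the mean over members), 90 sets in all from the same arrays. In 8 of the 90 an array stood apart from the others by Dixon's criterion, where chance gives about 1 in 20. For ENSRNOT00000006553, member 1, these were the lowest 1,4-dichlorobenzene array (5.2707, next 7.6349) and the lowest set A control array of 90 d (4.1583, next 5.2684). For the other named members they were the lowest water control for ENSRNOT00000076877 (6.3351), the lowest cyproterone acetate F array of 14 d for ENSRNOT00000024423 (9.2389) and the highest phenobarbital array of 28 d for ENSRNOT00000024119 (8.6974). In the mean over all 59 members, the lowest 1,4-dichlorobenzene array was 7.1179 (next 7.2386), the highest of its corn oil controls was 6.6098 (next 6.5007), and the lowest set A control of 90 d was 6.4433 (next 6.5454).

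Effects that differed between compounds or groups were those of ENSRNOT00000076877 (1.8726) and ENSRNOT00000024119 (1.5427), in which piperonyl butoxide exceeded phenobarbital at 14 d. In all, 4 members differed in that test and 2 between cyproterone acetate in F and M animals at 14 d.

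The arrays left out for their quality give a further comparison. The 1,4-dichlorobenzene array marked as not of good quality exceeded the marked corn oil control array by a median of 0.549 log2 units over the 59 members (-0.86 to 3.67), with 51 above 0, against a median of -0.0224 over all transcripts. In 30 members the difference was 0.5 or more, against 7.17% of all transcripts. Set against the used corn oil controls instead, the same array had a median of 0.552, with 55 members above 0, against 48.4% of all transcripts. Those used controls had a part in choosing the members, so this second comparison is not independent of the rule. For ENSRNOT00000024119 the choice of control decided the value, 1.36 against the marked control and 0.0082 against the used ones, since the marked control lay at -1.35 from them. With 1 array on each side there is no test, and neither array entered the rule.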

How the results depend on the processing

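Of 112 recomputed counts of members called under settings other than leaving out an array, 107 stayed within 1.5 times the reported count. Without the dimmest 40% of transcripts, which dropped 7 members, piperonyl butoxide at 14 d called 17 members and rosiglitazone 2. With all arrays, phenobarbital at 90 d called 14. With the variance from 1 control set alone, methapyrilene 30 mg/kg at 14 d called 0 and rosiglitazone 0. For these the cause was not tested. Leaving out each array in turn gave 9 to 11 members for piperonyl butoxide at 14 d, 0 to 1 for phenobarbital at 14 d (1 without set A control replicate 1), 3 to 8 for phenobarbital at 90 d, 15 to 18 for cyproterone acetate M at 14 d, and 15 to 20 and 13 to 21 for F at 14 d and 28 d. It gave 1 to 3 for methapyrilene 30 mg/kg at 14 d, 0 for pioglitazone 16 mg/kg, 2 to 4 for 63 mg/kg, 0 to 2 for rosiglitazone, 11 to 15 for F against M controls, 3 to 8 for set A controls at 90 d against 14 d, 3 to 4 for piperonyl butoxide against phenobarbital, and 2 to 3 for cyproterone acetate F against M. Of the values of transcripts named by identifier, those past the threshold stayed past it in all but 24 of 230 alternatives, and 0 of them reversed. Those not past it were not followed. The rule itself was met by 57 transcripts with all arrays (47 of them members), 75 with centred arrays (55) and 55 after quantile normalisation (43). Replicate numbers are shared between groups, but the deviations of same-numbered arrays correlated only from -0.0786 to 0.112, with no comparison in which every pair passed 0.1. With the replicate number as a block, the counts were 11 for piperonyl butoxide and 0 for phenobarbital at 14 d, 7 for phenobarbital at 90 d, 18, 19 and 20 for cyproterone acetate M at 14 d, F at 14 d and F at 28 d, 4 for methapyrilene, 0 and 3 for pioglitazone, 1 for rosiglitazone, 14 and 7 between controls, and 4 and 2 for the differences between effects.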
